A study of Mus musculus with 9 samples.

Results

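The receptor for glucocorticoid hormones, the proteins that tune its hormone response and a panel of its classical target genes were described in ILC2s, the group 2 innate lymphoid cells that reside in tissues and release type 2 cytokines. The 9 genes were chosen by symbol, with earlier results of these data known. They were the receptor Nr3c1, its cochaperones Fkbp5 and Fkbp4, the steroid-activating enzyme Hsd11b1, and the target genes Irs2, Klf9, Ddit4, Sgk1 and Tsc22d3, and they are 9 of the 23466 genes in the deposited count table. All 9 were present in the table and all 9 passed the filter on low counts that left 15117 genes for testing.

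RNA was sequenced from 9 libraries in 3 groups of 3, all from wild-type C57/Bl6 mice aged 10 weeks. The first group was brain meninges from mice that had received a spinal cord contusion of 80 kdyn 1 day earlier, the second was brain meninges from uninjured mice, and the third was lung from uninjured mice. No group with surgery but no contusion is named in the labels, so injury cannot be told apart from anesthesia and surgery. In every group the cells were sorted as live CD45+ Lin- St2+ Thy1+ cells, and 5 mice were pooled per group. The labels do not say whether the 3 libraries of a group came from separate pools, and a p-value here therefore reflects library-to-library spread that may be technical. The authors deposited raw read counts, which are given here as CPM, counts scaled to the TMM library size. Differences are log2 fold changes with standard errors (SE) from edgeR's quasi-likelihood test, with p-values adjusted by the Benjamini-Hochberg method over all 15117 genes. A gene was called at an adjusted p under 0.05, by edgeR unless DESeq2 is named. Over all 15117 genes DESeq2 called 271 between injured and uninjured meninges, 420 between uninjured meninges and lung and 789 between injured meninges and lung. The percentages of all genes called that are given below are those of edgeR.

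The libraries held between 13407277 and 18253462 counts and detected between 13465 and 18452 genes, and the 2 mitochondrial ribosomal RNAs took between 23.5% and 32.5% of the counts. Library 2 of injured meninges stood apart. Its rank correlation across genes with the other 2 libraries of its group was 0.795 and 0.799, against 0.854 to 0.886 for the other 7 pairs within groups, and it detected the fewest genes, 13465. All 10 marker genes of ILC2s and of the sort gate were detected in every group, led by Il1rl1, which encodes St2. Their summed level was 8528 to 11165 CPM in injured meninges, 7818 to 8404 CPM in uninjured meninges and 7867 to 10108 CPM in lung. Thy1, one of the sort markers, was the only gene of that list that edgeR called in any comparison, while DESeq2 called 2 after injury and 1 in each comparison with lung. Thy1 fell after injury, to 68.0 ± 21.6 CPM in injured meninges, against 225 ± 56.3 CPM in uninjured meninges (SD, n = 3 each, adjusted p = 0.0218). That call was lost without injured library 2 or 3, without uninjured library 1 or 3 and with only the 6 libraries compared, with adjusted p from 0.0642 to 0.131. These are bulk samples, so fewer cells of a type and less RNA per cell cannot be told apart.

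In resting cells the glucocorticoid receptor sits in the cytoplasm in a complex with Hsp90 and its cochaperones. Hormone binding exchanges Fkbp5 for Fkbp4 in that complex and carries the receptor into the nucleus, where it binds response elements built from paired half-sites. Fkbp5 is itself a target gene whose product lowers hormone binding, and in lymphocytes the induced genes are known for anti-inflammatory, pro-apoptotic and metabolic roles.

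No member of the set passed the edgeR threshold after injury. Against lung, Irs2 was called lower in both meningeal groups, and Ddit4 was called higher in injured meninges only. Between injured and uninjured meninges edgeR called 0 of 9 genes, against 0.192% of all genes tested, 0.132% called higher and 0.0595% called lower. DESeq2 called 1 of the 9, Irs2, and 271 of all 15117 genes. In 4 of 9 genes, Nr3c1, Fkbp5, Irs2 and Klf9, every injured library lay above every uninjured one, and in 0 of 9 did every injured library lie below. Over all genes tested, 5.35% were separated upward, 6.79% downward and 12.1% in either direction. An unadjusted p under 0.05 was reached by 3 of 9 genes, Nr3c1, Klf9 and Irs2, and by 8.94% of all genes. The median log2 fold change was 0.33 over the 9 genes and -0.00 over all genes. Of 7 monocyte and macrophage markers tested, 1 was called lower after injury, the chemokine receptor Ccr2, with 607 ± 125 CPM in injured meninges and 1368 ± 118 CPM in uninjured meninges (SD, n = 3 each). Ccr2 made up most of that list's sum, 612 to 830.1 CPM in injured meninges, 1272 to 1528 CPM in uninjured meninges and 1406 to 2020.2 CPM in lung. Among the other genes of the list both directions were seen. Cd68 and Mrc1 were higher after injury, both without overlap and uncalled. Cd68 had 13.5 ± 14.6 CPM in injured meninges and 1.19 ± 0.059 CPM in uninjured meninges, and Mrc1 34 ± 8.0 CPM and 9.99 ± 12.6 CPM in the same order. Itgam had a lower mean after injury, as Ccr2 did, with 6.66 ± 7.72 CPM and 20.4 ± 19.4 CPM, overlapping and uncalled. The part of these markers in the member values was not tested.

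Between uninjured meninges and lung, 1 of 9 genes was called, Irs2, which was lower in meninges (0.595% of all genes were called lower, 0.0397% higher and 0.635% in either direction). The groups did not overlap in 4 of 9 genes, Ddit4 higher and Nr3c1, Irs2 and Klf9 lower in meninges, against 7.63% and 10.6% of all genes (18.2% together), and 3 of 9 genes had an unadjusted p under 0.05, against 7.98% of all genes. Between injured meninges and lung, 2 of 9 genes were called, Ddit4 higher and Irs2 lower, against 0.179% of all genes called higher, 0.873% called lower and 1.05% in either direction. Groups were separated in 2 genes upward, Fkbp5 and Ddit4, and in 2 downward, Irs2 and Hsd11b1, against 6.38% and 11.4% of all genes (17.8% together), and 4 of 9 had an unadjusted p under 0.05, against 13.3% of all genes. The 3 comparisons share libraries pairwise, so their values are set side by side and none stands as support for another.

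**Figure D1:**
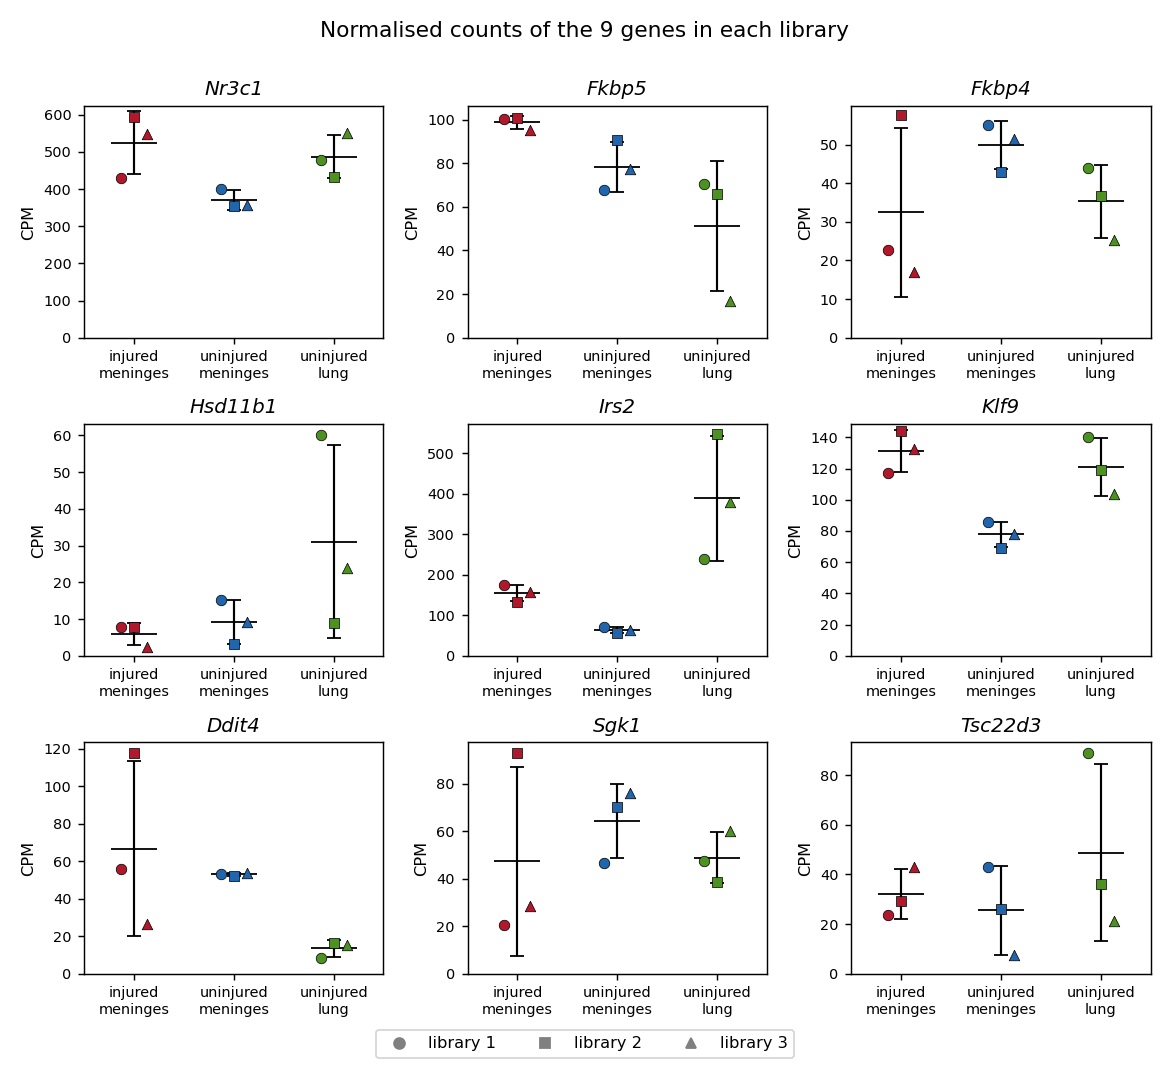
Normalised counts (CPM, linear axes from 0) of the 9 genes in every library of injured meninges, uninjured meninges and lung. Points are libraries, marked by library number, and the horizontal line with its bar is the mean ± SD of 3 libraries. Irs2 sits at 133 to 174 CPM in injured meninges, 56.4 to 72.1 CPM in uninjured meninges and 239 to 547 CPM in lung, while library 2 of injured meninges is the high point for Sgk1, Ddit4 and Fkbp4.

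Nr3c1, the receptor itself (ENSMUSG00000024431, chromosome 18), was the most abundant member in every group when levels were divided by exon length. It stood at 68.3 ± 11.1 CPM per kilobase in injured meninges, 48.2 ± 3.40 in uninjured meninges and 63.4 ± 7.64 in lung (SD, n = 3 each), and its mean over all libraries was at percentile 98.0 of 15067 genes with a length. In CPM it measured 429.9, 594 and 549 in injured meninges, 401, 354 and 357 in uninjured meninges, and 478, 433 and 549.8 in lung. The uninjured meninges were the lowest group, with no overlap with either other group, and injured meninges and lung overlapped. The log2 fold change was 0.50 ± 0.20 (SE) for injured over uninjured meninges, with 525 ± 85.0 CPM and 370.4 ± 26.2 CPM (SD, n = 3 each). That difference had an unadjusted edgeR p of 0.0210 and an adjusted p of 0.492. For uninjured meninges over lung it was -0.40 ± 0.20 (SE, adjusted p = 0.651).

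The Hsp90 cochaperones Fkbp5 and Fkbp4 did not pass in any comparison, and they differed in how tightly the injured libraries agreed. Fkbp5 (ENSMUSG00000024222, chromosome 17), the inhibitory cochaperone and receptor target, had 100.3, 101 and 95.1 CPM in injured meninges, 67.7, 90.6 and 77.2 CPM in uninjured meninges, and 70.6, 65.8 and 16.8 CPM in lung. All injured libraries lay above all libraries of both other groups, and lung library 3 was far below the rest. The means were 98.7 ± 3.19 CPM in injured and 78.5 ± 11.5 CPM in uninjured meninges, a log2 fold change of 0.33 ± 0.43 (SE, adjusted p = 0.884). Against the 51.1 ± 29.8 CPM in lung the injured meninges stood 0.95 ± 0.43 higher on the log2 scale (SE, adjusted p = 0.351).

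Fkbp4 (ENSMUSG00000030357, chromosome 6), the cochaperone that links the hormone-bound receptor to dynein, had 22.6, 57.6 and 17 CPM in injured meninges, 55.0, 42.9 and 51.5 CPM in uninjured meninges, and 43.9, 36.8 and 25.2 CPM in lung. Injured libraries 1 and 3 were the lowest of all 9, and injured library 2 was the highest. The log2 fold change after injury was -0.62 ± 0.50 (SE, adjusted p = 0.784), and -1.33 without library 2 of injured meninges (adjusted p = 0.50). Counts of Fkbp5 over counts of Fkbp4 within a library gave 4.43, 1.75 and 5.58 in injured meninges, 1.23, 2.11 and 1.5 in uninjured meninges, and 1.61, 1.79 and 0.669 in lung. Injured libraries 1 and 3 had the highest ratios, injured library 2 fell inside the range of uninjured meninges, and the groups overlapped.

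Hsd11b1 (ENSMUSG00000016194, chromosome 1), which regenerates active corticosterone from its inert form inside cells, was the least abundant member per kilobase in both meningeal groups. It measured 7.71, 7.80 and 2.44 CPM in injured meninges, 15.1, 3.16 and 9.27 CPM in uninjured meninges, and 60.2, 8.91 and 24.0 CPM in lung. Lung library 2 fell within the range of uninjured meninges, while all injured libraries lay below all lung libraries. The log2 fold change was -2.37 ± 0.88 for injured meninges over lung (SE, adjusted p = 0.243), -1.76 ± 0.86 for uninjured meninges over lung (adjusted p = 0.651) and -0.62 ± 0.85 for injured over uninjured meninges (adjusted p = 0.893). Without lung library 1 the values against lung were -1.46 for injured and -0.84 for uninjured meninges, and without uninjured library 1 the value after injury was -0.05.

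Markers of lung structural cells had higher mean sums in lung than in either meningeal group. The summed level of 9 lung epithelial markers was 22.8, 27.8 and 7.96 CPM in injured meninges, 11.5, 8.78 and 3.76 CPM in uninjured meninges, and 2147, 650.0 and 1288 CPM in lung, and 1 of the 6 markers tested was called lower in each meningeal group relative to lung (DESeq2 called 3 in injured and 4 in uninjured meninges). The epithelial sums overlapped between the meningeal groups. Scgb1a1, a club cell secretory protein, led that sum in lung, and Sftpc, Krt8 and Krt18 were at 0 in all injured libraries, as were Sftpd and Krt18 in all uninjured meningeal ones. The 8 endothelial markers summed to 145, 116 and 65.2 CPM in injured meninges, 224, 61.8 and 115 CPM in uninjured meninges, and 614, 201 and 485 CPM in lung, with 0 of 8 called by edgeR. Relative to lung, 5 of 8 in injured meninges and 4 of 8 in uninjured meninges had an unadjusted p under 0.05, and DESeq2 called 4 and 1 in the same order. Over all 15117 genes 13.3% and 7.98% had an unadjusted edgeR p under 0.05, and DESeq2 called 789 and 420. Across the lung libraries Hsd11b1 and these 2 sums had the same order, library 1 highest and library 2 lowest. The 8 fibroblast markers had another order in lung, with library 3 highest. They summed to 33.7, 15.8 and 3.89 CPM in injured meninges, 77.3, 3.29 and 30.6 CPM in uninjured meninges, and 170.3, 166 and 313 CPM in lung, with 3 of 8 called lower in injured meninges and 2 of 8 in uninjured meninges, and Inmt and Dpt were at 0 in all 6 meningeal libraries. The part of these markers in the Hsd11b1 values was not tested.

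Irs2 (ENSMUSG00000038894, chromosome 8), an adaptor that carries insulin, IGF1 and interleukin 4 receptor signals to PI3 kinase, separated all 3 groups. It measured 174, 133 and 158 CPM in injured meninges, 72.1, 56.4 and 63.6 CPM in uninjured meninges, and 239, 547 and 380.4 CPM in lung. Lung was highest, injured meninges intermediate and uninjured meninges lowest, with no overlap between any pair of groups. The means were 155 ± 20.4 CPM in injured meninges, 64.0 ± 7.84 CPM in uninjured meninges and 389 ± 154 CPM in lung (n = 3 each, ± SD).

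Irs2 was lower in uninjured meninges than in lung, with a log2 fold change of -2.60 ± 0.30 (SE, adjusted p = 0.000399) and a mean 6.07-fold below that of lung, and this call was made in all 14 alternatives. Injured meninges were also lower than lung, by a log2 fold change of -1.33 ± 0.28 (SE, adjusted p = 0.0320). That call was made in 8 of 14 alternatives and was lost without lung library 2 (log2 fold change -1.02, adjusted p = 0.198), lung library 3 (adjusted p = 0.118), injured library 2 (0.0826) or injured library 3 (0.0962), with only the 6 libraries compared (0.0641), and with a replicate block (0.0506). For injured over uninjured meninges the log2 fold change was 1.28 ± 0.28 (SE), a 2.42-fold higher mean, with an unadjusted p of 0.000399 and an adjusted p of 0.104. The same difference was called by DESeq2 (adjusted p = 0.00399) and by edgeR without the filter on low counts (0.0130), and in 0 of 9 fits that left out a library.

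The annotation (GENCODE M21) places 9530052E02Rik, a processed transcript of the opposite strand, over exons of Irs2. The strand setting of the counting was not stated in the sources used here, and reads of an overlapping pair cannot then be told apart. A list of 13 immediate early and dissociation response genes had the same order as Irs2 across the lung libraries. Its summed level was 185, 349.7 and 396 CPM in injured meninges, 198, 381 and 1019.9 CPM in uninjured meninges, and 2203, 3862 and 3535 CPM in lung, and 4 of its 13 genes were called lower in uninjured meninges and 5 in injured meninges relative to lung. Between the meningeal groups the sums overlapped. Egr1 led the list in both meningeal groups, and Atf3 was at 0 in all meningeal libraries. The part of this response in the Irs2 differences, between tissues or after injury, was not tested.

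**Figure D2:**
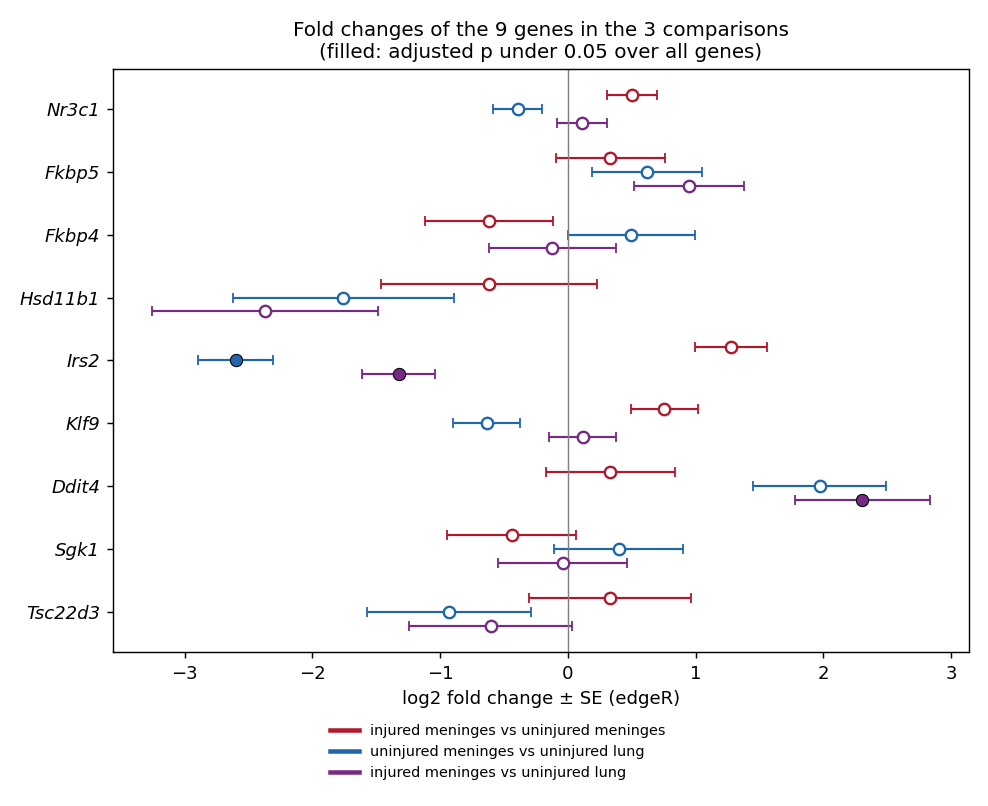
Log2 fold change ± SE (horizontal axis) of the 9 genes in the 3 comparisons, one colour each, with filled points where the adjusted p over all genes was under 0.05. The 3 filled points are Irs2 in both comparisons with lung, at -2.60 and -1.33, and Ddit4 in injured meninges against lung, at 2.30.

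Klf9 (ENSMUSG00000033863, chromosome 19), a Krüppel-like factor that represses transcription and is induced directly by the receptor, followed the same order of groups as the receptor. It had 117, 144 and 133 CPM in injured meninges, 85.8, 69.4 and 78.2 CPM in uninjured meninges, and 141, 119 and 104 CPM in lung. Uninjured meninges were lowest without overlap, and injured meninges and lung overlapped. The log2 fold change was 0.75 ± 0.26 for injured over uninjured meninges (SE, unadjusted p = 0.0116, adjusted p = 0.45) and -0.64 ± 0.26 for uninjured meninges over lung (adjusted p = 0.495), both by edgeR. Across the 9 libraries the Pearson correlation of log2 levels between Klf9 and Nr3c1 was 0.82, the highest of the 36 pairs of members, given as a description of libraries that share group and depth.

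Ddit4 (ENSMUSG00000020108, chromosome 10), a stress-induced inhibitor of mTORC1 also known as Redd1, was the only member called higher in any comparison with lung, in injured meninges. It had 55.9, 118 and 26.6 CPM in injured meninges, 53.1, 52.3 and 53.9 CPM in uninjured meninges, and 8.60, 16.6 and 15.4 CPM in lung. Every meningeal library lay above every lung library, and the injured libraries spanned the tight cluster of uninjured ones. Injured meninges had a mean of 66.9 ± 46.7 CPM and lung one of 13.5 ± 4.32 CPM (SD, n = 3 each), and the log2 fold change was 2.30 ± 0.53 (SE, adjusted p = 0.0489). That call was made in 3 of 14 alternatives, and it was lost in 8 of 9 fits that left out a library, with an adjusted p of 0.172 without injured library 2 and 0.212 without lung library 1.

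For uninjured meninges over lung the Ddit4 log2 fold change was 1.97 ± 0.52 (SE, adjusted p = 0.134). It passed without injured library 2 (adjusted p = 0.0418), with only the 6 libraries compared (0.0426), without the filter (0.0355) and in DESeq2 (0.0123). After injury Ddit4 had a log2 fold change of 0.33 ± 0.50 (SE, adjusted p = 0.902), and of -0.36 without library 2 of injured meninges. Counts of Ddit4 over counts of Irs2, a ratio chosen after the values were seen, were 0.321, 0.884 and 0.169 in injured meninges, 0.737, 0.928 and 0.847 in uninjured meninges, and 0.0360, 0.0304 and 0.0404 in lung. The meningeal libraries all lay above the lung ones, and the injured and uninjured libraries overlapped.

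**Figure D3:**
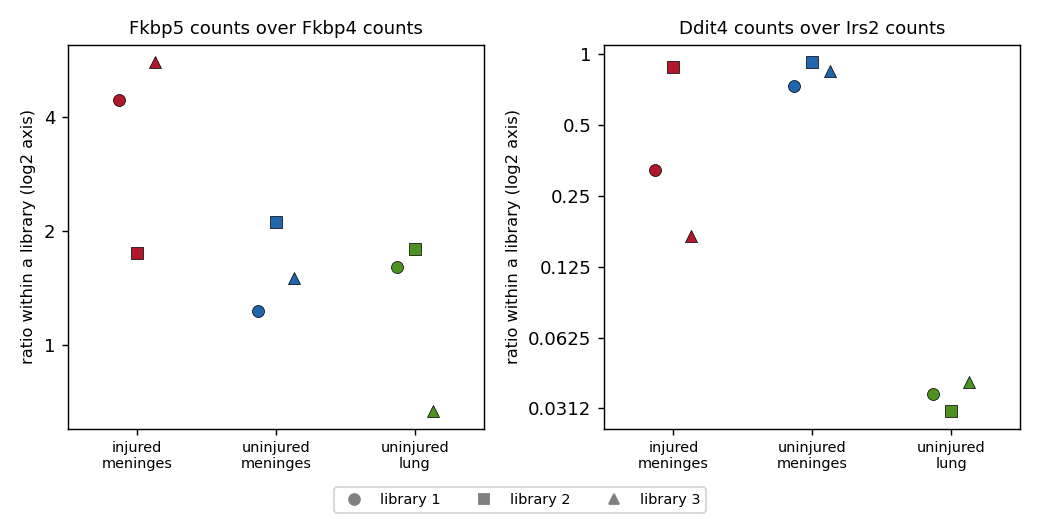
Ratio of Fkbp5 to Fkbp4 counts and of Ddit4 to Irs2 counts within each library (log2 axes), by group, with library numbers as symbols. Injured libraries 1 and 3 have the highest Fkbp5 to Fkbp4 ratios, 4.43 and 5.58, and the lung libraries have the lowest Ddit4 to Irs2 ratios, 0.0304 to 0.0404.

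The last pair of targets, Sgk1 and Tsc22d3, is shown with sequence. Among the member promoter windows searched, only theirs held an exact match to a receptor response element or its half-site. RefSeq windows (GRCm38.p6, from 250 bases before to 50 after a transcription start) were found for 8 of 9 members, 15 windows in all, and Nr3c1 was not among them. The full element, AGAACA and TGTTCT with any 3 bases between them, was searched on both strands, as was the half-site TGTTCT, which is contained in the full element. The full element was found in 1 of the 15 windows, that of Sgk1 start 5 of 6, and in 3 of 32851 windows of all genes (0.00913%). The half-site was found in 4 of the 15 windows, 3 of Sgk1 and 1 of Tsc22d3, and in 19.0% of all windows. Sgk1 had 6 of the 15 windows and Tsc22d3 had 3. The Tsc22d3 window with the half-site matched at most 7 of the 12 fixed letters of the full element, as 94% of all windows did. Elements outside the windows were not searched. The windows of Irs2, Klf9, Ddit4, Fkbp5, Fkbp4 and Hsd11b1 held neither. Printed here, 5' to 3', are bases -250 to -141 from the start for those 2 windows and for the 2 called members, with the full element of Sgk1 and the half-site of Tsc22d3 in capitals. A further half-site of Sgk1 in this stretch is left in lower case. A match describes letters and is not evidence of binding.
Sgk1 (chr10:21993640-21993749, plus strand): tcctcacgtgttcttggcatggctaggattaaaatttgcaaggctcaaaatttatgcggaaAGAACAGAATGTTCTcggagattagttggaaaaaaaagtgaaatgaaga
Tsc22d3 (chrX:140600663-140600772, minus strand): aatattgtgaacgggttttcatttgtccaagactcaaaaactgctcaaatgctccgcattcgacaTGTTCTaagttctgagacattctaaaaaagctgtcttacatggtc
Irs2 (chr8:11009070-11009179, minus strand): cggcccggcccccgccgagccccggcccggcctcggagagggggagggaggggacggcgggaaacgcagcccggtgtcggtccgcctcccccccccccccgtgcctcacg
Ddit4 (chr10:59951911-59952020, minus strand): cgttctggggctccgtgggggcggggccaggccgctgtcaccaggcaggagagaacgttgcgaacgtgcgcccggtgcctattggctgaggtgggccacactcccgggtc

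The Sgk1 element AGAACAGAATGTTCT lies at chr10:21993701-21993715, from -189 to -175 of its own start and 951 bases before the last annotated Sgk1 start. The Tsc22d3 half-site begins at -185 of the start of its window. The counts are per gene and do not separate these starts.

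Sgk1 (ENSMUSG00000019970, chromosome 10), a kinase that regulates ion channels and Foxo factors, had 20.6, 93.1 and 28.6 CPM in injured meninges, 46.7, 70.1 and 75.9 CPM in uninjured meninges, and 47.6, 38.7 and 60.1 CPM in lung. Injured libraries 1 and 3 were the lowest of all 9 and injured library 2 the highest, the same pattern as for Fkbp4. The means were 47.4 ± 39.8 CPM in injured meninges and 64.2 ± 15.5 CPM in uninjured meninges (SD, n = 3 each), with a log2 fold change of -0.44 ± 0.50 (SE, adjusted p = 0.867). Without injured library 2 it was -1.38 (adjusted p = 0.422). For uninjured meninges over lung it was 0.40 ± 0.50 (SE, adjusted p = 0.979).

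Tsc22d3 (ENSMUSG00000031431, chromosome X), which encodes the anti-inflammatory leucine zipper protein Gilz, had 23.5, 29.5 and 43.2 CPM in injured meninges, 43.2, 26.1 and 7.39 CPM in uninjured meninges, and 89.1, 36.2 and 21.1 CPM in lung. Every pair of groups overlapped, and each group spread widely. The log2 fold change was 0.33 ± 0.64 after injury (SE, adjusted p = 0.930), -0.93 ± 0.64 for uninjured meninges over lung (adjusted p = 0.863) and -0.61 ± 0.64 for injured meninges over lung (adjusted p = 0.768). Without uninjured library 3 the value after injury was -0.11.

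Ranked by level per kilobase, the order of members changed between groups. Irs2 stood at 24.5 ± 3.23 CPM per kilobase in injured meninges (rank 4 of 9), 10.1 ± 1.24 in uninjured meninges (rank 6) and 61.5 ± 24.4 in lung (rank 2). Ddit4 stood at 38.1 ± 26.6 in injured meninges (rank 2), 30.3 ± 0.44 in uninjured meninges (rank 2) and 7.71 ± 2.46 in lung (rank 7). Irs2 and Nr3c1 overlapped in lung, at 37.8 to 86.5 and 56.4 to 71.5 CPM per kilobase.

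The genes whose log2 levels followed those of the receptor most closely over the 9 libraries, among 8111 with a mean of at least 10 CPM, were Cltc (Pearson r = 0.965), the clathrin heavy chain, Tmem216 (0.956) and Adam15 (0.940), a membrane metalloprotease. For Irs2 they were Gm43430 (0.968), Ccr8 (0.953), a chemokine receptor of type 2 lymphocytes, and Birc3 (0.948), an inhibitor of apoptosis. For Ddit4 they were Plcg1 (0.958), a phospholipase, Polr2e (0.956), an RNA polymerase II subunit, and 4632427E13Rik (0.944). Ccr8 averaged 68.3 CPM in injured meninges, 39.9 CPM in uninjured meninges and 219.8 CPM in lung, the order of Irs2. Cltc averaged 311 CPM in injured meninges, 205 CPM in uninjured meninges and 312 CPM in lung.

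The wider receptor pathway was read from 5 lists, with 67 genes tested. Between injured and uninjured meninges edgeR called 0 of 67, while 10 of 67 had an unadjusted p under 0.05, against 8.94% of all genes. DESeq2 called 1 of the 67, Bcl2l11, and 271 of all 15117 genes. The median log2 fold change of the 67 after injury was 0.11, against -0.00 over all genes. Between uninjured meninges and lung 5 of 67 were called lower and 0 higher, against 0.595% and 0.0397% of all genes, and 17 had an unadjusted p under 0.05, against 7.98%. Between injured meninges and lung 7 were called lower and 1 higher, against 0.873% and 0.179% of all genes, and 17 had an unadjusted p under 0.05, against 13.3%. The medians were -0.27 for injured and -0.26 for uninjured meninges over lung. All of these calls were in the chaperone list and the list of other glucocorticoid-induced genes. The 5 genes lower in uninjured meninges kept that call in every alternative, except Rgs2 without the filter on low counts (adjusted p = 0.0603). Of the 8 called between injured meninges and lung, Dusp1 and Zfp36 were called in all 14 alternatives, and 2 were called without lung library 3, 3 without lung library 2 and 4 without injured library 3.

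Among 15 chaperones and cochaperones of the receptor, Hsp90aa1, the inducible Hsp90, was lower in uninjured meninges, with 90.3 ± 14.4 CPM in uninjured meninges and 400.1 ± 204 CPM in lung (n = 3 each, ± SD, log2 fold change -2.15 ± 0.35, adjusted p = 0.00685). Injured meninges had 113 ± 24.0 CPM of Hsp90aa1, also lower than lung (adjusted p = 0.0170). Relative to lung the Hsp70 chaperone Hspa8 (283 ± 57.6 CPM in injured meninges and 608 ± 141 CPM in lung, adjusted p = 0.030) and its partner Dnaja1 (174 ± 66.8 CPM and 594 ± 248 CPM, adjusted p = 0.0167) were lower in injured meninges as well. Across the lung libraries Hsp90aa1 had 184, 589 and 427 CPM. Hsp90aa1, Hspa8 and Dnaja1 all had the lung library order of the summed immediate early and dissociation response list. Dnajb1 belongs to both that list and the chaperone list. The part of this response in the chaperone values was not tested. The constitutive Hsp90ab1 was not called by edgeR in any comparison, at 361 ± 68.2 CPM in injured meninges, 498 ± 83 CPM in uninjured meninges and 663 ± 261 CPM in lung. DESeq2 called 0 chaperones after injury, 4 between uninjured meninges and lung, and 5 between injured meninges and lung, Hsp90ab1 among these 5. Over all 15117 genes it called 271, 420 and 789 in the same order. After injury Cdc37, a kinase-specific cochaperone, had 16.6 ± 12.1 CPM in injured and 35.7 ± 3.08 CPM in uninjured meninges (adjusted p = 0.656), and Hspa4 had 272 ± 50.9 CPM and 217 ± 38.6 CPM (adjusted p = 0.727).

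Of 23 other glucocorticoid-induced genes tested, 4 were lower in uninjured meninges than in lung, and 18 of 23 had a negative log2 fold change, with a median of -1.07 against 0.00 over all genes. The 4 were Dusp1, a phosphatase of MAP kinases, Nfkbia, the NF-κB inhibitor, Zfp36, an mRNA-destabilising protein, and Rgs2, a regulator of G protein signalling. Dusp1 had 27.8 ± 13.3 CPM in uninjured meninges and 304 ± 71.9 CPM in lung (n = 3 each, ± SD, log2 fold change -3.45 ± 0.44, adjusted p = 0.00103). Nfkbia had 28.2 ± 6.38 CPM in uninjured meninges and 224 ± 107 CPM in lung (adjusted p = 0.00103), Zfp36 118 ± 85.9 CPM and 808 ± 238 CPM (adjusted p = 0.00323), and Rgs2 227 ± 106 CPM and 1335 ± 411 CPM (adjusted p = 0.00325). All 4 are also immediate early genes of stress or growth factor responses, and Dusp1 is one of the 13 genes of the immediate early list that was higher in lung.

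The same 4 genes were lower in injured meninges than in lung, where Txnip, an inhibitor of thioredoxin and of glucose uptake, was the 1 gene of the list that was higher. Txnip had 776, 846 and 911 CPM in injured meninges and 470.1, 307 and 262 CPM in lung (log2 fold change 1.29 ± 0.28, adjusted p = 0.0333). After injury the smallest p-values of this list belonged to Il7r, Bcl2l11 and Nfkbia, which edgeR did not call, while DESeq2 called Bcl2l11. Il7r, the interleukin 7 receptor chain, had 2086 ± 367 CPM in injured and 1301 ± 224 CPM in uninjured meninges (adjusted p = 0.219). Bcl2l11, the pro-apoptotic Bim, had 155 ± 24.1 CPM and 79.9 ± 7.31 CPM in the same order (adjusted p = 0.259), and Nfkbia had 62.6 ± 11.3 CPM and 28.2 ± 6.38 CPM (adjusted p = 0.355). In all 3 the injured libraries lay above the uninjured ones without overlap.

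**Figure D4:**
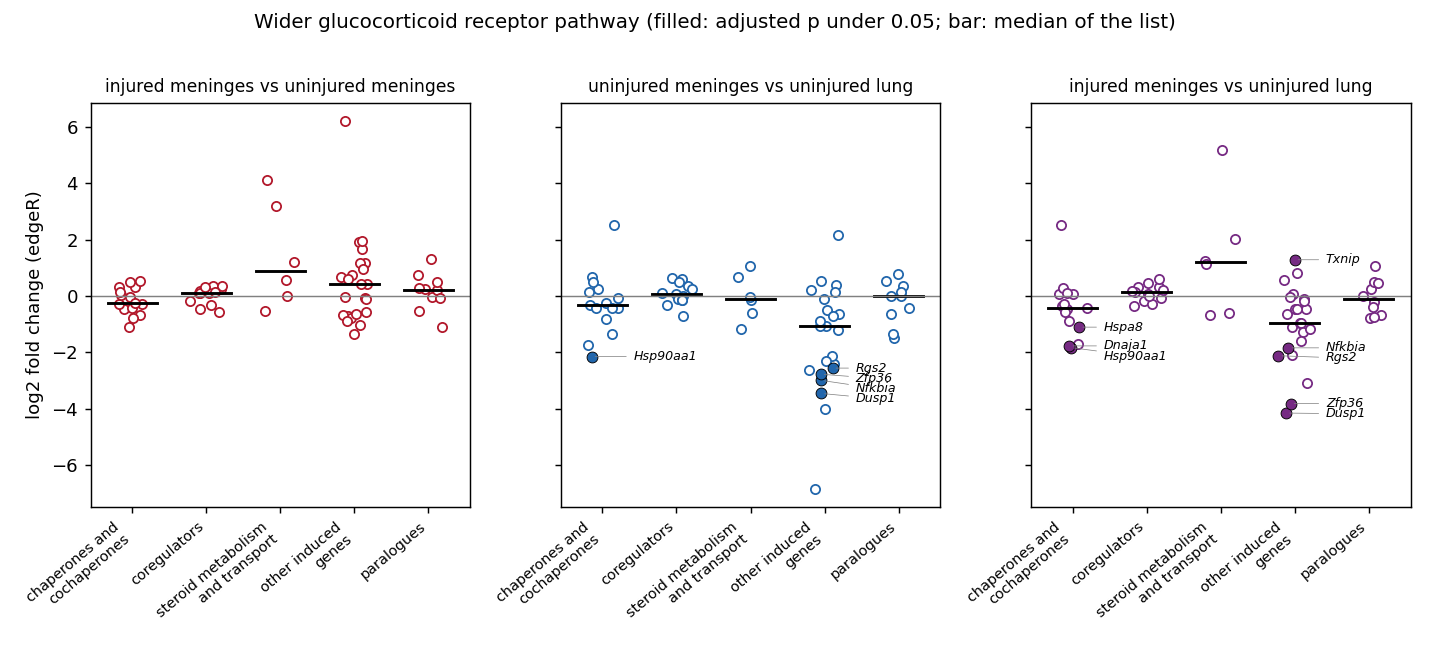
Log2 fold change (vertical axis) of each tested gene of 5 pathway lists in the 3 comparisons, with filled and labelled points where the adjusted p over all genes was under 0.05 and a bar at the list's median. The left panel, injured against uninjured meninges, has 0 filled points, and in both panels against lung the 4 labelled genes below 0 in the list of other induced genes are Dusp1, Nfkbia, Zfp36 and Rgs2.

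Of 13 nuclear receptor coregulators, 0 were called in any comparison by edgeR or by DESeq2, and an unadjusted p under 0.05 was reached by 1 after injury, 3 between uninjured meninges and lung and 0 between injured meninges and lung. Over all genes the shares at that edgeR p were 8.94%, 7.98% and 13.3% in the same order. Med1, a Mediator subunit, had 244 ± 25.8 CPM in injured meninges, 339 ± 24.7 CPM in uninjured meninges and 223 ± 32.5 CPM in lung (n = 3 each, ± SD, adjusted p = 0.529 after injury and 0.327 between uninjured meninges and lung). Smarca4, an ATPase of chromatin remodelling, had 91.6 ± 17.9 CPM, 134 ± 19.9 CPM and 87.2 ± 13 CPM in the same 3 groups (adjusted p = 0.591 and 0.582). For both genes the uninjured meninges lay above both other groups without overlap, whereas for Nr3c1 they lay below both. The acetyltransferase Crebbp had 689 ± 96.8 CPM in injured and 541 ± 33.0 CPM in uninjured meninges (adjusted p = 0.590), the corepressor Nrip1 had 466 ± 141 CPM in uninjured meninges and 766 ± 217 CPM in lung (adjusted p = 0.424), and the coactivator Ncoa2 had 579 ± 176 CPM in injured meninges and 422 ± 34.5 CPM in lung (adjusted p = 0.389).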

How the data were processed

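RNA-seq of 9 libraries was analysed from the raw read counts per gene that the authors deposited. The submitters' processing notes name FastQC, STAR and HTSeq as tools and mm9 as the build, without versions or roles, and the strand setting was not stated in the sources used here. Per the labels' protocols, RNA was extracted with PicoPure and amplified with the Ovation V2 kit, so reads are not independent molecules. Symbols came from the table for 15969 genes and from a reference list for 7407, and 90 kept their identifier. Counts were filtered with filterByExpr and scaled by TMM, and 9 libraries entered 1 robust quasi-likelihood fit in edgeR 4.0.16 (R 4.3.3), with Benjamini-Hochberg adjustment over 15117 genes and a threshold of 0.05. Each SE was taken from the log2 fold change and the F statistic. The scripts were tested on simulated data. Levels per kilobase used GENCODE M21 exon lengths, and chromosomes are those of GRCm38, since the reference at hand is of another build than the counts. Alternatives were DESeq2 1.42.0, RLE size factors, no filter, only the 6 libraries compared, a replicate block, and leaving out each library. The 9 members and the pathway and marker lists were chosen with earlier results of these data known. All members are named; from each list, genes called and otherwise up to 3 with the smallest p and a group mean of at least 10 CPM are named, with the genes of most similar pattern to Nr3c1 and to called members.

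Of the other marker lists, mast cell and basophil genes summed to 384 to 558 CPM in injured meninges, 236 to 308 CPM in uninjured meninges and 642 to 867 CPM in lung, nearly all of it Kit (445, 249 and 721 CPM on average), while Cpa3 averaged 0.377, 4.70 and 13.2 CPM in the same groups. Neural and glial genes summed to 77.7 to 202, 150.1 to 199 and 99.9 to 150.2 CPM in the same groups. Mbp made up most of those sums, with 125, 157 and 129 CPM on average, while Gfap averaged 0.104, 0.788 and 0 CPM. The B cell, T cell, neutrophil and erythroid genes stayed at or below 103 CPM in every library.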

Additional observations from a re-analysis of the deposited data

How the results depend on the processing

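Of 27 member fold changes, 22 kept their direction in all 14 alternatives, and the other 5 reversed only in fits that left out a library. After injury Tsc22d3 ranged from -0.11 to 0.94 and Ddit4 from -0.36 to 0.71 on the log2 scale when 1 library was left out. Between injured meninges and lung Tsc22d3 ranged from -0.97 to 0.16, Sgk1 from -0.99 to 0.31 and Fkbp4 from -0.83 to 0.18, and the single reversed values of Sgk1 were 0.31, 0.22 and 0.13 and of Fkbp4 0.08, 0.18 and 0.07. All these results were uncalled throughout. For genes called after injury, 29 became 271 in DESeq2, 78 without the filter on low counts, 12 with only the 6 libraries compared, and 18 to 27 with 1 library left out. Between uninjured meninges and lung 96 became 420, 193, 226 and 51 to 196 in the same order, and between injured meninges and lung 159 became 789, 296, 172 and 54 to 230. Members called after injury were 0, and 1 in DESeq2 and without the filter. Between uninjured meninges and lung they were 1, and 2 in DESeq2, without the filter and with only the 6 libraries compared, and 1 to 2 with 1 library left out. Between injured meninges and lung they were 2, then 1 with RLE size factors, 0 with only the 6 libraries compared, and 0 to 1 with 1 library left out. The cause of these moves was not tested. The same alternatives were applied to the called genes of the wider lists and to Thy1, a choice made after seeing the data, and none of those genes reversed.

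Replicate numbers are not a stated pairing of the samples, and the main fit used none. Deviations from group means correlated between -0.024 and 0.106 for same-numbered libraries, with 1 of 9 pairs above 0.1. For libraries with different numbers the range was -0.139 to 0.116, with 1 of 18 pairs above 0.1. Correlations over so few pairs cannot exclude a pairing. With a replicate block 43, 136 and 183 genes were called in the 3 comparisons, and 0, 1 and 0 members.

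With 3 libraries a group, the standard errors of the members ran from 0.19 to 0.88 on the log2 scale. Counts behind single values ran from 39 for Hsd11b1 to 8767 for Nr3c1.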

Other observations

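Genes that make, inactivate or export steroids, and the mineralocorticoid receptor, formed a list of 12, of which 6 were tested. In any comparison 0 were called by edgeR or by DESeq2. After injury 2 of the 6 had an unadjusted edgeR p under 0.05, against 8.94% of all genes. Abcb1b, a drug and steroid efflux pump, had 51.1, 74.5 and 70.1 CPM in injured meninges and 24.4, 24.8 and 36.2 CPM in uninjured meninges, without overlap (edgeR log2 fold change 1.19 ± 0.45, adjusted p = 0.478). Its paralogue Abcb1a had 36.5 ± 20.4 CPM in injured meninges, 24.7 ± 18.6 CPM in uninjured meninges and 15.6 ± 6.91 CPM in lung (n = 3 each, ± SD). Star, which delivers cholesterol to steroid synthesis, had 9.44, 10.6 and 56.2 CPM in injured meninges and 4.24, 3.74 and 0.269 CPM in uninjured meninges (adjusted p = 0.473). Cyp11a1, the first enzyme of that synthesis, had 0, 37.8 and 0 CPM in injured meninges and 0, 0 and 2.15 CPM in uninjured meninges, so its mean after injury rested on library 2. A count of 0 allows up to 3 counts, 0.163 to 0.239 CPM across the libraries, for counting error only. The mineralocorticoid receptor Nr3c2, which also binds corticosterone, had 26.1, 2.70 and 24.0 CPM in injured meninges, 20.5, 17.9 and 14.7 CPM in uninjured meninges, and 21.8, 26.3 and 31.8 CPM in lung, and injured library 2 was again the one apart.

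Of 14 paralogues of the members, 10 were tested and 0 were called by edgeR or by DESeq2. An unadjusted edgeR p under 0.05 was reached by 1 of 10 after injury, against 8.94% of all genes. Between uninjured meninges and lung it was reached by 1 of 10, against 7.98% of all genes. Irs1, the other main insulin receptor substrate, had 0.119, 0 and 0 CPM in injured meninges, 0.327, 0 and 0 CPM in uninjured meninges, and 11.1, 0 and 4.36 CPM in lung, and it did not pass the filter. Its lung values were highest in libraries 1 and 3, as were those of Hsd11b1. Fkbp1a, the immunophilin of the drug FK506, had 129.7, 371 and 50.8 CPM in injured meninges, 86.7, 62.5 and 70.8 CPM in uninjured meninges, and 133, 219.6 and 201 CPM in lung (adjusted p = 0.478 after injury and 0.407 between uninjured meninges and lung, edgeR). Klf10 had 63.2 ± 0.69 CPM in injured and 44.4 ± 12 CPM in uninjured meninges (SD, n = 3 each, adjusted p = 0.742), and Tsc22d2 had 91.5 ± 26.2 CPM in uninjured meninges and 144 ± 51.4 CPM in lung (adjusted p = 0.651).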
